A study of Mus musculus with 8 samples.

Results

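The neuronal intermediate filament genes are the neurofilament triplet Nefl, Nefm and Nefh, the alpha-internexin gene Ina and the peripherin gene Prph. They were taken by gene symbol and not by their values, and all 5 were found among the 15035 genes measured. Auditory nerves were dissected out of the cochleas of mice at postnatal day 21 and their poly(A) RNA was sequenced, with 1 library for each mouse from its 2 pooled cochleas. The genes measured held an estimated 13363262 to 21507345 reads per library. Libraries 1 to 4 are biological replicates of the wild type, and libraries 5 to 8 of mice carrying the label Mef2c heterozygote (+/-). The labels give no strain or sex, and they do not say how the Mef2c allele was made. The question was which transcripts of the nerve change with Mef2c hypofunction, Mef2c being a transcription factor of the MADS-box family. Mef2c itself read 402.2 to 508.7 normalized counts in wild type and 583.3 to 735.1 in the heterozygote-labelled group (limma-trend adjusted p = 0.186). The label gives a genotype and not a level of RNA, and the reason for the higher Mef2c values was not tested. Every direction here is between libraries as labelled. For Mef2c the authors' deposited table gives a ratio of 1.44 with an FDR of 0.0162.

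Intermediate filaments of neurons fill the axon, set its calibre and so bear on how fast it conducts. The light chain encoded by Nefl is the core on which the medium and heavy chains, Nefm and Nefh, are assembled, and both of those carry long tails that are heavily phosphorylated in the axon. Alpha-internexin can take part in the same filaments, and peripherin is a related filament protein of peripheral neurons. In the cochlea most spiral ganglion neurons are the large myelinated type I cells that contact inner hair cells. The few type II cells are thin and unmyelinated, and peripherin is the filament protein used to recognise them.

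In the mouse assembly GRCm38 (mm10 in the submitters' processing notes), Nefl lies on chromosome 14 from 68083863 to 68089095 on the plus strand. Nefm lies on the same chromosome from 68119545 to 68125004 on the minus strand, 30449 bases away. The other genes are on chromosomes of their own, with Nefh on 11 (4938754 to 4948064), Ina on 19 (47014681 to 47025327) and Prph on 15 (99053579 to 99058978). The longest annotated transcripts have 3380 bases for Nefl, 3680 for Nefm, 3994 for Nefh, 3240 for Ina and 1863 for Prph.

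Ina and Prph are shown because they are the 2 members that matched the RefSeq promoter table (GRCm38.p6). The windows are the 250 bases before a RefSeq start site, chr19:47014431-47014680 for Ina and chr15:99054924-99055173 for Prph, both on the plus strand. The Prph window precedes a start site that lies inside the gene span given above. Capitals mark matches on either strand to the TATA box letters TATAAA and the GC box letters GGGCGG, which do not overlap here.
Ina: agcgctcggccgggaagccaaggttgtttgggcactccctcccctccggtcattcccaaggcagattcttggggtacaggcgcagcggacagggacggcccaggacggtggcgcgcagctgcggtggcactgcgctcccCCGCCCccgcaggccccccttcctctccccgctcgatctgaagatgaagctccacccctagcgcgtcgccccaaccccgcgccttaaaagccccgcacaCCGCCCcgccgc
Prph: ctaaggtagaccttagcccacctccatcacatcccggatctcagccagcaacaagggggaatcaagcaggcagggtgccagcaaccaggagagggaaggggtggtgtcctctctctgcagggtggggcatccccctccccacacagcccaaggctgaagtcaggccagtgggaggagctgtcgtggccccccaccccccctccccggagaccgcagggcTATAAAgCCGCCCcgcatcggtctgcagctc
The Prph window held the TATA box letters 31 to 26 bases before the start site and 1 GC box. The Ina window held 2 GC boxes and no TATAAA. Of 32851 RefSeq windows of this length, 12.4% held TATAAA and 32.7% held GGGCGG. The letters CTATTTTTA, a core of the element that MEF2 factors bind, were found in neither window and in 0.454% of all windows. These matches describe the letters only.

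By level, the members fell into 3 tiers. On the scale of normalized counts per kilobase of transcript, Nefm had 12560 ± 1435 in wild type, Nefh 12243 ± 2477 and Nefl 10947 ± 1058 (SD, n = 4 each). Ina had 1630 ± 322 on that scale and Prph 55.0 ± 13.1. Nefm was above Nefl in all 8 libraries, but the order of Nefh against the other chains changed from library to library, and in wild type the 3 means lay within the spread of Nefh. Ina was below each triplet gene and above Prph in every library. Among heterozygote-labelled libraries, Nefh was the highest member at 13954 ± 1371 per kilobase, followed by Nefm at 12442 ± 898, Nefl at 10766 ± 675, Ina at 1850 ± 202 and Prph at 48.6 ± 14.8.

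The triplet was among the most abundant transcripts of the nerve. By normalized counts, Nefh ranked 6 to 20 of 15035 genes across the 8 libraries, Nefm 12 to 16 and Nefl 19 to 25. Together they took 0.646% to 0.914% of the normalized counts in wild type and 0.770% to 0.866% in the libraries labelled heterozygote. Ina ranked 263 to 597. Prph ranked 11511 to 13183, with an estimated 61 to 123 reads in a library.

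Nefl had 33662, 36095, 42069 and 36174 normalized counts in wild-type libraries 1 to 4. It had 37849, 38794, 34128 and 34782 in heterozygote-labelled libraries 5 to 8. Wild-type library 3 was the highest and wild-type library 1 the lowest, so all values of the other group lay inside the wild-type range. Nefm had 41720, 42328, 52964 and 47873 normalized counts in wild type. The heterozygote-labelled libraries had 48392, 48716, 44056 and 41991, again within the wild-type range. These were the steadiest members, with at most a 1.27-fold gap between any pair of libraries for Nefm and a smaller one for Nefl.

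**Figure D1:**
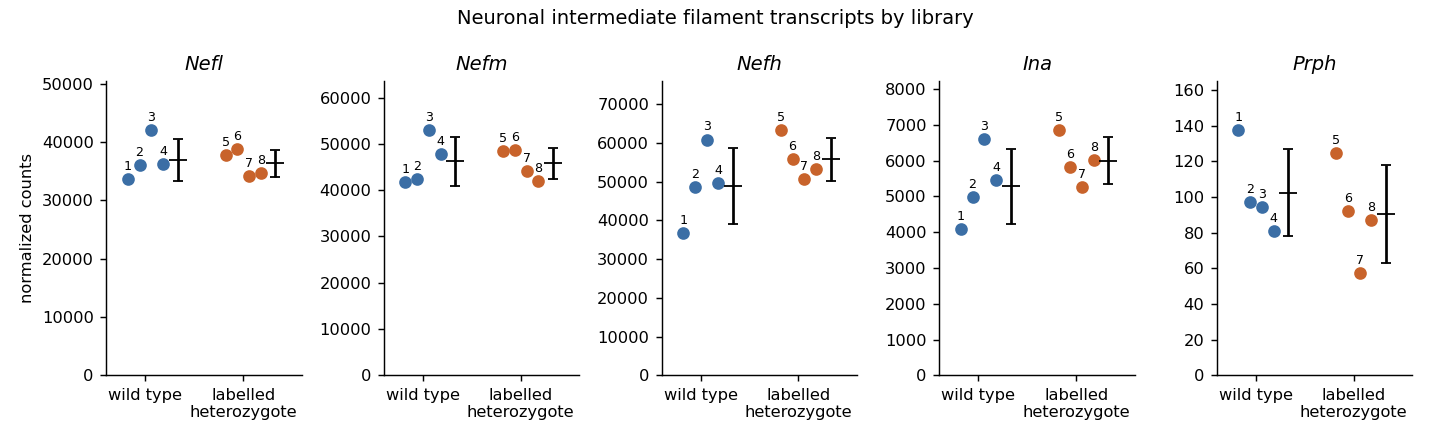
Normalized counts (y axis, from 0, own scale for each gene) of the 5 members in each library, numbered by replicate, with wild type in blue and the libraries labelled heterozygote in orange; black marks are the mean ± SD (n = 4). The groups overlap in every panel, and wild-type library 1 is lowest for Nefh and Ina and highest for Prph.

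Nefh, the heavy chain, had 36654, 48535, 60864 and 49541 normalized counts in wild-type libraries 1 to 4. It had 63296, 55858, 50628 and 53147 in heterozygote-labelled libraries 5 to 8. Library 5 stood above every wild-type library, and wild-type library 1 stood far below the rest. Ina had the same order of libraries in wild type at a lower level, with 4088, 4983, 6596 and 5452 normalized counts in wild type. In the libraries labelled heterozygote it had 6852, 5831, 5275 and 6023, and library 5 was again the only one above all wild-type values. The coefficient of variation in wild type was 20.2% for Nefh and 19.8% for Ina, against 9.66% for Nefl and 11.4% for Nefm.

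Prph had 137.6, 97.0, 94.4 and 80.9 normalized counts in wild type. It had 124.9, 92.4, 57.5 and 87.2 in the libraries labelled heterozygote. The highest library of each group, wild-type library 1 and heterozygote-labelled library 5, are also the 2 libraries nearly without Xist, the transcript of the inactive X chromosome. Xist read 12.0 and 7.6 normalized counts in them and at least 5175 in the other 6, and any part of this in the Prph values was not tested. Prph was the most variable member, with a coefficient of variation of 23.9% in wild type and 30.5% in the other group. Counting error alone at its estimated reads is 9.02% to 12.8%.

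None of the 5 members passed in the comparison of the groups. Values were fitted as log2(normalized count + 1) with limma-trend on all genes, with Benjamini-Hochberg adjustment, and over all genes 12 of 14870 tested genes (0.0807%) had an adjusted p under 0.05. All 5 members were among the genes tested. The log2 fold change, heterozygote-labelled over wild type, was 0.21 ± 0.17 (SE) for Nefh, and the adjusted p from limma-trend was 0.570. Ina gave 0.20 ± 0.14, with 0.518 as the adjusted p from limma-trend. Nefl and Nefm gave -0.02 and -0.01, and Prph gave -0.20 ± 0.29. Their limma-trend adjusted p were 0.948, 0.979 and 0.760. At an unadjusted p under 0.05 there were 0 of the 5 members, against 14.1% of all tested genes. The groups overlapped for all 5, where 7.26% of tested genes had groups that did not overlap.

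The intervals show what size of change the libraries could still hold. The 95% interval of the fold ran from 0.821 to 1.18 for Nefl and from 0.814 to 1.21 for Nefm. It ran from 0.898 to 1.48 for Nefh, from 0.931 to 1.41 for Ina and from 0.565 to 1.34 for Prph, on the log2(value + 1) scale. A halving or doubling lay outside all 5 of them. In bulk tissue, fewer cells of a type and less RNA in each cell cannot be told apart. Single libraries set much of the Nefh and Ina values. Leaving out wild-type library 1 brought the log2 fold change of Nefh to 0.08, and leaving out library 3 brought it to 0.32. For Ina these values were 0.08 and 0.31. Without the 2 libraries low in Xist, Nefh gave 0.01 and Ina 0.02. With quantile normalization Nefh gave 0.44. Single libraries moved Prph both ways: leaving out library 5 gave -0.37 and leaving out library 7 gave -0.0039, the extremes of the 8 values. Leaving out wild-type library 1 gave -0.05, and leaving out the fourth gave -0.30.

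**Figure D2:**
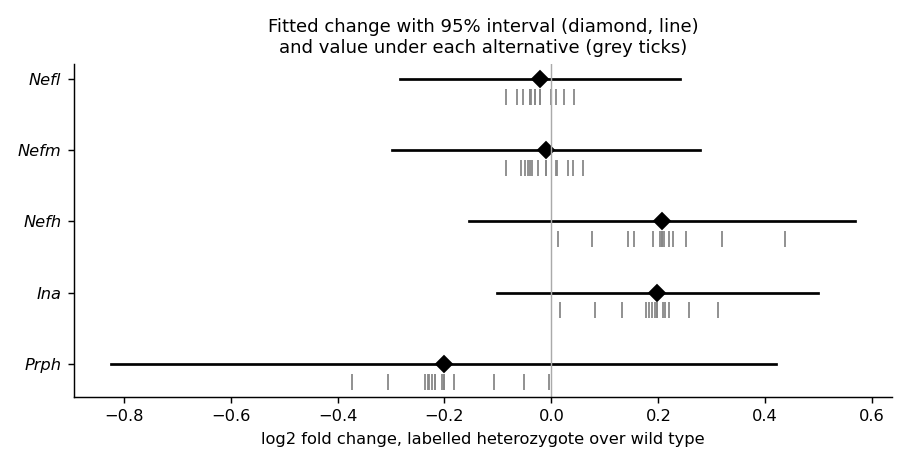
Log2 fold change of each member, libraries labelled heterozygote over wild type (x axis), with its 95% interval as a diamond and a line, and the value under each of 18 alternatives as grey ticks. Every interval spans 0, and the ticks of Nefl and Nefm fall on both sides of it.

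The authors' deposited table gives ratios of 0.983 for Nefl, 0.991 for Nefm, 1.14 for Nefh, 1.14 for Ina and 0.883 for Prph. In the authors' deposited table the FDR of the 5 genes ran from 0.560 to 0.967, so 0 of them passed 0.05, where 1.61% of its 15024 genes with an FDR did.

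Ratios between members compare the composition of the filament transcripts inside a library, where a common scaling factor of the library drops out. The ratio with the smallest p was that of the heavy chain to the light chain, and it did not pass after adjustment. The ratio of Nefh to Nefl was 1.09, 1.34, 1.45 and 1.37 in wild-type libraries 1 to 4, and 1.67, 1.44, 1.48 and 1.53 in heterozygote-labelled libraries 5 to 8. All but library 6 were above every wild-type library. The log2 ratio differed by 0.23 with a standard error of 0.10 (two-sided exact permutation p = 0.0571), and the p was 0.286 after Benjamini-Hochberg adjustment over the 5 ratios tested. With 4 against 4 the smallest p is 0.0286. Without the 2 libraries low in Xist the difference was 0.10 (exact permutation p = 0.200, where 3 against 3 can give no less than 0.10). An exact permutation p of 0.0286 was reached with quantile normalization (0.41), with a correction for transcript length (0.19) and without wild-type library 3 (0.28), and in each of these the value adjusted over the 5 ratios was 0.143. Per kilobase, Nefh made up 30.1% to 36.2% of the triplet in wild type and 36.1% to 39.4% in the other group. Nefl made up 29.6% to 32.7% and 27.9% to 29.7%, and Nefm 33.5% to 37.2% and 32.6% to 34.5%.

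The ratio of Nefm to Nefl varied least of the 5, at 1.249 ± 0.0621 (SD, n = 4) in wild type and 1.258 ± 0.0369 (SD, n = 4) in the heterozygote-labelled group. Its log2 value differed by 0.01 between the groups (exact permutation p = 0.800). Ina to Nefl was 0.121 to 0.157 in wild type and 0.150 to 0.181 in the other group, a log2 difference of 0.22 with an exact permutation p of 0.143, which was 0.10 without the 2 libraries low in Xist. Prph to Nefl differed by -0.18 and Prph to Ina by -0.40, with exact permutation p of 0.514 and 0.314. Prph to Ina gave -0.14 without wild-type library 1, -0.24 without the 2 libraries low in Xist and -0.26 without heterozygote-labelled library 7. After adjustment over the 5 ratios these 4 exact permutation p were 0.357 to 0.800.

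**Figure D3:**
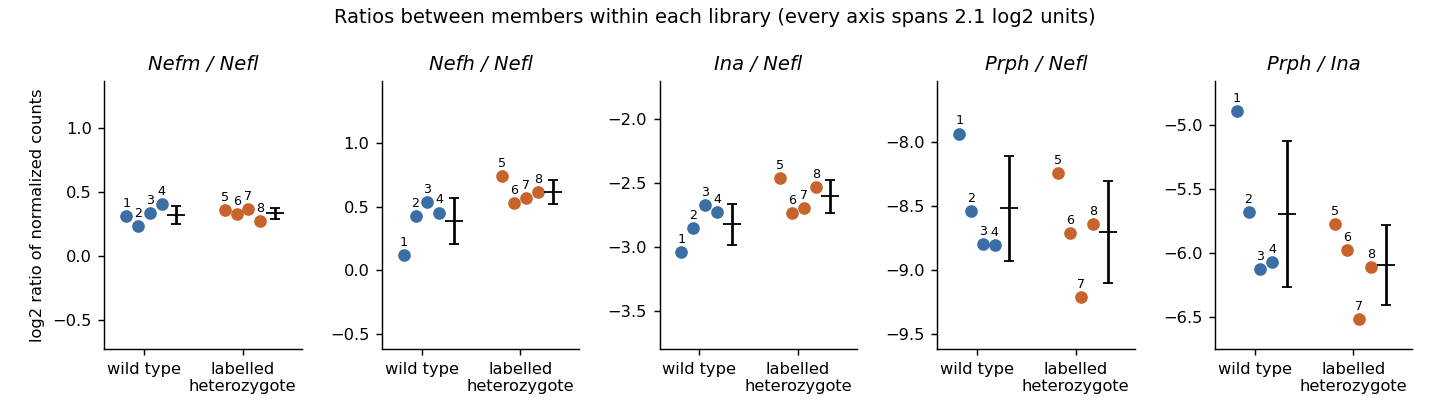
Log2 ratio of normalized counts for 5 pairs of members within each library (y axis, equal span in every panel), numbered by replicate, with the mean ± SD of each group in black (n = 4). Nefm to Nefl varies least, and for Nefh to Nefl 3 of the 4 libraries labelled heterozygote lie above all wild-type libraries.

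Across libraries, the 3 triplet genes and Ina were positively correlated with each other. Nefh and Ina, from different chromosomes, had the highest correlation over the 8 libraries, with a Pearson r of 0.98 and a Spearman rho of 0.95. The exact permutation p were 0.000174 and 0.00114, and 0.00174 and 0.0112 after adjustment over the 10 pairs of members. Without the 2 libraries farthest out, wild-type library 1 and heterozygote-labelled library 5, r was 0.93. Nefl and Nefm gave r of 0.90 and rho of 0.93, with adjusted exact permutation p of 0.0114 and 0.0112, and r of 0.75 without wild-type library 3 and heterozygote-labelled library 6.

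Nefl and Nefm each correlated with Nefh and with Ina at r of 0.70 to 0.73, with adjusted exact permutation p of 0.0847 in all 4 cases, and with rho of 0.67 to 0.76 (adjusted exact permutation p 0.115 to 0.138). Without the 2 libraries farthest out, these r were 0.47 to 0.75. Taking each library as a deviation from its group mean, r was 0.97 for Nefh with Ina, 0.90 for Nefl with Nefm, 0.88 for Nefl with Nefh, 0.84 for Nefl with Ina, 0.82 for Nefm with Nefh and 0.80 for Nefm with Ina. Differences between these correlations were not tested. Over the 8 libraries Prph gave r with the other members from -0.20 to 0.12, rho from -0.14 to 0.02 and adjusted exact permutation p from 0.859 to 0.977. Without the 2 farthest libraries its r were 0.24 to 0.34. The groups differed in this by their values: the 4 heterozygote-labelled libraries had the same order for Prph and Nefh, while wild-type library 1 was highest for Prph and lowest for Nefh. With 4 libraries in a group no correlation is given within it, and the difference was not tested.

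The members were then set beside 12 general neuron genes, among them Tubb3, Snap25, Thy1 and Eno2, as the median deviation of these genes in each library. Nefl tracked that median with r of 0.94 and rho of 0.83 (exact permutation p 0.00139 and 0.0154, adjusted over 5 relations 0.00694 and 0.0384), and r was 0.89 without the 2 farthest libraries. Nefm gave r of 0.81 and rho of 0.76, with adjusted exact permutation p of 0.0239 and 0.0459, but r was 0.46 without wild-type library 3 and heterozygote-labelled library 5, so that relation rests on them. Nefh and Ina gave r of 0.72 and 0.70, both with an adjusted exact permutation p of 0.0662, and rho of 0.83 and 0.76 (0.0384 and 0.0459). Without the 2 farthest libraries their r were 0.59 and 0.44. Prph gave r of 0.21 and rho of 0.19, with adjusted exact permutation p of 0.598 and 0.665, and r of 0.02 without those libraries. The neuron median itself ran from -0.12 to 0.25 in wild type and from -0.10 to 0.09 in the other group on the log2 scale, and its 12 genes had a median log2 fold change of 0.02 against 0.02 for all tested genes. Without the 2 libraries low in Xist the median log2 fold change of the 12 genes was -0.06, with 3 of 12 higher. Without wild-type library 1 it was -0.05, with 4 of 12 higher. Splitting by low Xist leaves 1 library of each group on one side, too few for any of these correlations to be taken within it.

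**Figure D4:**
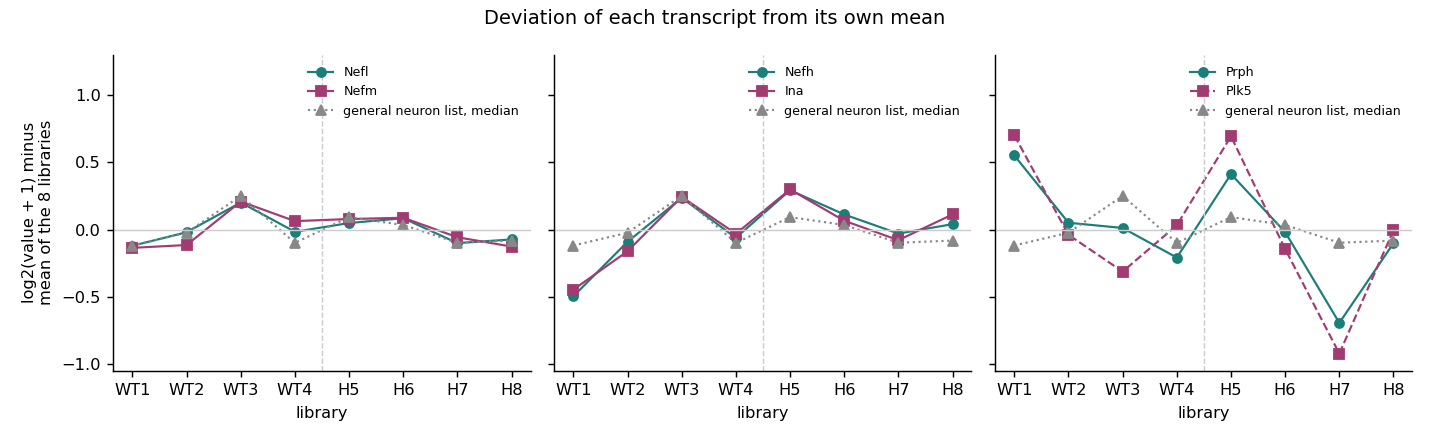
Deviation of log2(value + 1) from the mean of the 8 libraries (y axis) for Nefl and Nefm, for Nefh and Ina, and for Prph with the type II marker Plk5, each with the median of 12 general neuron genes in grey; WT1 to WT4 are wild type and H5 to H8 are labelled heterozygote, and lines only guide the eye. Nefh and Ina share a low wild-type library 1 and a high library 5, where Nefl and Nefm stay near the neuron median.

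The genes whose levels followed each member most closely over the 8 libraries were read out of 13351 tested genes with a mean of at least 50 normalized counts. These r are given as descriptions, since they were the highest among so many. For Nefl they were Thy1, a surface glycoprotein of neurons (r = 0.98), Serinc1 (0.97) and Colq, the collagen tail of acetylcholinesterase (0.96). Nefm was followed by Ttll1, a tubulin-modifying enzyme, Rtn1, a reticulon of the endoplasmic reticulum, and Bcat1, each at 0.97. Nefh was followed by Cds1, Tnpo2 and Dnm1, the last being the dynamin of synaptic vesicle recycling, each at 0.99. Ina had the closest followers of any member, with Syt2, a calcium sensor of fast transmitter release (r = 0.997), Kcnab2, an accessory subunit of Kv1 potassium channels (0.99), and Scamp1 (0.99). For the mean profile of the triplet the closest genes included Bend6, Slc22a17, Tmem150c, Ndrg4, Usp33, Nptn and Fbxo31, at 0.95 to 0.98. None of these followers passed in the comparison of the groups, with limma-trend adjusted p of at least 0.5003. Syt2 read 6894 to 12764 normalized counts in wild type and 9753 to 13759 in the heterozygote-labelled group.

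Prph was followed by Pip4p2, Cnot10 and Hsf2, at r of 0.96 to 0.98. Because Prph marks type II neurons, it was also compared with 11 other genes known from those cells. This comparison was added after the Prph values were seen. Of the 11 genes, 8 were measured, and Calca, Calcb and Ano2 were not analysed here. The closest was Plk5, a polo-like kinase enriched in type II neurons. Plk5 had 315.4, 188.5, 155.8 and 198.1 normalized counts in wild-type libraries 1 to 4, and 313.9, 175.1, 101.8 and 193.1 in heterozygote-labelled libraries 5 to 8. Like Prph, it was highest in wild-type library 1 and library 5, the 2 libraries low in Xist, and lowest in library 7. The Pearson r was 0.93 with an exact permutation p of 0.00531, adjusted over the 8 relations to 0.0425. The Spearman rho was 0.60 with an adjusted exact permutation p of 0.535, and r without wild-type library 1 and heterozygote-labelled library 7 was 0.75. Library 5 remains in that value, and r without the 2 libraries low in Xist was not computed. Outside libraries 1, 5 and 7, wild-type library 4 had the highest Plk5 (198.1) and the lowest Prph (80.9).

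Th, the tyrosine hydroxylase of type II neurons, gave r of 0.54 and rho of 0.45 with Prph. Its r was 0.24 without wild-type library 1 and heterozygote-labelled library 7. The other 6 gave r from -0.67 to 0.25 and rho from -0.55 to 0.24, and r from -0.33 to 0.45 without them. The adjusted exact permutation p of these 7 genes ran from 0.279 to 0.996. Th had 140.2 to 218.2 normalized counts in wild type and 77.3 to 183.6 in the other group. Its log2 fold change was -0.53, and limma-trend gave an adjusted p of 0.401. Among the most abundant of the type II genes were Ngfr, Gata3 and Smad3, which are not restricted to these neurons. Their log2 fold changes were 0.08, -0.34 and 0.33, with limma-trend adjusted p of 0.294 to 0.782, and of these Smad3 was the one whose groups did not overlap. Across the 8 type II genes, 0 passed in either direction, 4 were higher and 4 lower, and the median was -0.06. Of 7 markers of autonomic and cholinergic neurons, other cells that make peripherin, only Isl1 was measured, a factor that spiral ganglion neurons express as well.

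Genes that work on or with the filaments, and other intermediate filament genes, were read from the same fit. Over these 7 lists with 60 different tested genes, 0 passed in either direction, 6 higher and 3 lower genes had an unadjusted p under 0.05 (15%, near the 14.1% of all genes), and the median log2 fold change was 0.11. Other intermediate filament genes made up 2 of those higher and 2 of those lower genes. The 6 plakin genes listed, whose products link filaments to other parts of the cytoskeleton or to cell junctions, all had higher means in the libraries labelled heterozygote, with a median of 0.43. Dystonin (Dst) gave 0.57, Plec 0.44, Dsp 0.43 and Macf1 0.35, with limma-trend adjusted p of 0.308, 0.278, 0.373 and 0.259. Macf1 was the only one whose groups did not overlap, at 2461 to 3275 against 3468 to 4101 normalized counts. Plakin transcripts are long, and with the correction for transcript length the median was 0.17 and 5 of 6 were higher.

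The motors that carry neurofilaments down the axon had a median of 0.14, with 6 of 8 higher and 0 passing. The median was 0.03 with the length correction and -0.0021 without the 2 libraries low in Xist, with 4 of 8 higher in both. Klc1, Dync1h1, Dctn1 and Kif5a were the most abundant, with log2 fold changes of -0.14, 0.31, 0.15 and 0.32. Kinases and phosphatases of the filament heads and tails had a median of 0.11 with 0 of 12 passing, and 0.04 with the length correction. Ppp2ca gave -0.07, Mapk3 -0.04, Prkaca 0.24 and Gsk3b 0.44, the last with a limma-trend adjusted p of 0.285. Among 10 genes of turnover and chaperoning the median was 0.08. The most abundant were Cryab (-0.20), Trim2, a ubiquitin ligase acting on the light chain (0.09), Capn2 (0.08) and Stub1 (-0.14). With the length correction the medians of the turnover list and of the list of proteins binding filament mRNA turned, to -0.02 and -0.06. Without the 2 libraries low in Xist they were -0.06 and -0.04, and the turnover median was -0.05 without wild-type library 1. As fitted, those binding proteins had a median of 0.02, with Hnrnpk, Tardbp and Elavl1 between -0.06 and 0.12. Transcription factors tied to these genes had a median of 0.18 (0.03 with the length correction), with Isl1 at -0.03, Sp1 at 0.18, Pou4f1 at 0.10 and Pou4f2 at 0.34. In these 5 lists the limma-trend adjusted p of the genes named were at least 0.285.

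**Figure D5:**
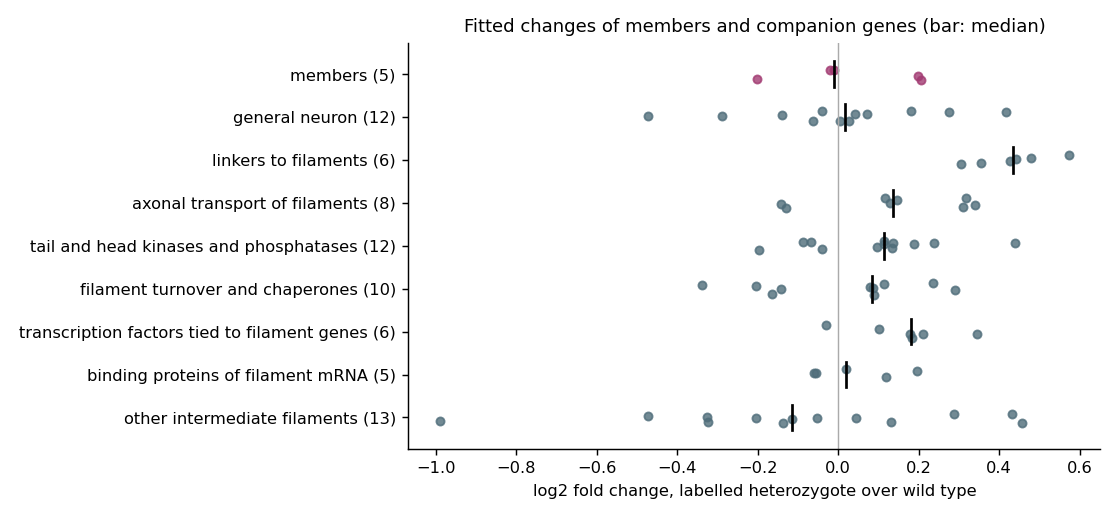
Log2 fold change, libraries labelled heterozygote over wild type (x axis), of the 5 members, 12 general neuron genes and the 7 lists of genes that work with filaments or are other intermediate filaments, with 1 point for each gene and a bar at the median; vertical scatter within a row has no meaning. The members lie between -0.20 and 0.21, and all 6 linker genes lie to the right of 0.

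Other intermediate filament genes had a median of -0.11 with 5 of 13 higher and 0 passing. Without the 2 libraries low in Xist the median turned to 0.0074 with 7 of 13 higher, and without wild-type library 1 it was -0.04. Gfap, the filament of astrocytes and of some glia of peripheral nerve, had 12894 ± 3658 normalized counts in wild type and 6477 ± 1640 in the heterozygote-labelled group (SD, n = 4 each). Its log2 fold change was -0.99, and limma-trend gave an adjusted p of 0.160. Vim gave -0.14, Synm 0.46 and Lmna -0.05, with limma-trend adjusted p of 0.362 to 0.858.

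The cell types around the axons differed between libraries, and their values stand beside those of the members. All 12 general neuron genes and all 7 Schwann cell genes were measured. So were all listed genes of oligodendrocytes, astrocytes, hair cells, and osteoblasts and osteocytes, so presence alone does not mark the tissue. Of 8 oligodendrocyte genes, 4 passed (Mog, Mobp, Klk6 and Prr18) and all 4 were lower in the libraries labelled heterozygote. Their list summed to 21880 to 28422 normalized counts in wild type and 8436 to 16267 in the other group, with Opalin at or under 3 estimated reads in at least 1 library. The median deviation of the oligodendrocyte list was highest in wild-type library 1 (0.91) and lowest in library 5 (-1.19). In these libraries Nefh and Ina were lowest and highest. Both are also the libraries low in Xist, and the relation over the 8 libraries was not tested. Of 10 type I neuron genes 0 passed and 8 were higher, with a median of 0.16 (0.03 with the length correction). Dropping the 2 libraries low in Xist gave a median of 0.04, with 6 of 10 higher. Calb2, the most abundant type I gene, had a log2 fold change of -0.31 over all libraries. The type I list was lowest in library 1, at -0.47, as were Nefh and Ina. Library 5, where Nefh and Ina were highest, stood at 0.26 for this list, slightly below libraries 3 and 8 (both 0.27). Astrocyte genes summed to 21044 to 30755 in wild type and 11391 to 18998 in the other group, and 0 of 6 passed. The median log2 fold change was -0.10 for Schwann cell genes, -0.01 for hair cell genes, 0.64 for osteoblast and osteocyte genes and 3.67 for the 4 measured neutrophil genes, and 0 genes of these lists passed. The part of any of these cells in the values of the members was not tested.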

How the data were processed

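The authors deposited 1 table with a signal value for each gene and library, whose values look like reads scaled to a common depth. STAR, Partek and DESeq2 and the build mm10 are named in the submitters' processing notes, without roles or versions; the strand setting of the counting and the annotation are not given in the sources used here. Per the file headers the table also holds the authors' p-value, FDR and ratio. The deposited log2 ratio and the deposited score, a fold with a sign, were left aside. RNA under an integrity number of 7 was excluded and 50 ng went into each library, per the labels' protocols. 1 read was worth 0.789 to 1.30 normalized counts, estimated as the step of which 89.3% to 92.3% of values under 1000 are whole multiples within 0.06, which gives roughly 13363262 to 21507345 reads per library over the genes measured, not all reads sequenced. The share was too low to recover reads, so no count model was used. Replicates are biological, per the labels. Groups came from the sample titles, whose numbers 1 to 8 pair nothing.

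Genes reaching 10 normalized counts in 4 or more libraries were fitted with limma-trend (limma 3.58.1, R 4.3.3) on log2(value + 1), a scale that understates the change of low genes, with no covariate and a threshold of 0.05. The fit was tested on simulated counts with the same dispersion for every gene and no differences in cell content, a simpler setting than these libraries. Ratios used two-sided exact permutation tests over 70 splits, and correlations all 40320 pairings (Python 3.11.15, numpy 2.4.6, pandas 2.3.3, scipy 1.17.1; matplotlib 3.10.9 for plots). Lengths came from the longest GENCODE M21 transcript, matched by symbol for 97.6% of genes, and gene positions and promoters from RefSeq. Alternatives were other pseudocounts, filters and scalings, no trend, low Xist (under 100 normalized counts) as a covariate or left out, a length correction (loess, span 0.5) and each library left out. The relations of Prph with type II genes were added after its values were seen. Named were all members, their closest genes, and in each list the genes that passed and the 4 most abundant, of which some are not reported here; 0.05 was also read unadjusted. 4 genes stood in 2 lists. The members and lists were chosen with earlier results of these data known. A planned protein comparison was not made.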

Additional observations from a re-analysis of the deposited data

How the results depend on the processing

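The calls did not depend on the setting for any member: under all 18 alternatives to the fit, 0 of the 5 passed, with limma-trend adjusted p from 0.156 to 0.9998. Nefh, Ina and Prph kept their sign in all of them, in ranges of 0.01 to 0.44, 0.02 to 0.31 and -0.37 to -0.0039. Not all of these settings can test a sign. The other filters, the fit without a trend and low Xist as a covariate leave the log2 fold change of each member exactly as fitted. Other pseudocounts hardly moved that of Nefh or Ina. The sign of Nefl and Nefm, both near 0, turned with quantile normalization (log2 fold change 0.024 and 0.040) and with single libraries left out. For Nefl these were wild-type library 3 (0.042) and heterozygote-labelled library 7 (0.0088), in a range of -0.065 to 0.042, and for Nefm wild-type libraries 3 (0.058) and 4 (0.0097) and heterozygote-labelled libraries 7 (0.0081) and 8 (0.03), in a range of -0.056 to 0.058. The count over the whole table was 7 with quantile normalization, 0 without a trend and 30 with the length correction, and 0 to 221 with a library left out (0 on leaving out wild-type library 2, wild-type library 4 or library 8, 6 for library 7, 7 for library 5 and 221 for wild-type library 3). The same 3 settings gave 2, 0 and 7 calls within the companion lists, against 4 as reported, and 0 to 10 with a library left out. The log2 difference of Nefm to Nefl turned to -0.0048 with the length correction, to -0.018 without wild-type library 2 and to -0.00074 without heterozygote-labelled library 7 (range -0.018 to 0.040). That of Prph to Nefl turned to 0.012 without wild-type library 1 (range -0.34 to 0.012). That of Nefh to Nefl reached an exact permutation p of 0.0286 with quantile normalization (0.41) and the length correction (0.19), and ran from 0.14 to 0.28 with a library left out, with the same p without wild-type library 3. Adjusted over the 5 ratios, the value was 0.143 in all 3 cases, the least that 1 ratio alone can reach. The causes were not tested. Depth limits Prph most, at 61 to 123 estimated reads. No paired analysis was possible because the groups share no replicate number.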

Other observations

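The ratio of the heavy to the medium chain was looked at after its values were seen and is given without a test. Nefh to Nefm was 0.879, 1.147, 1.149 and 1.035 in wild-type libraries 1 to 4, and 1.308, 1.147, 1.149 and 1.266 in heterozygote-labelled libraries 5 to 8, so 2 libraries of each group were nearly level. Ina was 4.14% to 4.84% of the summed triplet per kilobase in wild type and 4.65% to 5.31% in the other group. Within tested genes with a mean of at least 1000 normalized counts, the spread of Nefl between libraries of a group was at percentile 26.9 and that of Nefm at percentile 39.0, while Nefh and Ina stood at percentiles 78.2 and 77.2. Wild-type library 3 had the highest Nefl and Nefm of all libraries, and its general neuron median was the highest too, at 0.25.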
